A study of Rattus norvegicus with 10 samples.

Results

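The 8 genes described here make, process, receive and clear the natriuretic peptides: the hormone genes Nppa, Nppb and Nppc, the receptor genes Npr1, Npr2 and Npr3, and the protease genes Corin and Furin. They were chosen by symbol from the 18025 genes of the deposited expression table, where each has 1 row, and all 8 were among the 14542 genes that averaged 0.1 FPKM or more (fragments scaled to gene length and library size) and were tested.

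Nppa and Nppb encode the precursors of atrial natriuretic peptide (ANP) and B-type natriuretic peptide (BNP), which heart muscle cells secrete when they are stretched, and Nppc encodes C-type natriuretic peptide, which acts mostly near the cells that make it. Corin and furin cut the precursors to the active hormones. The receptors encoded by Npr1 (for ANP and BNP) and Npr2 (for C-type peptide) make cyclic GMP (cGMP), whereas the receptor encoded by Npr3 takes the peptides up and clears them. In the fetal heart Nppa is active in the atria and in the trabeculae of the ventricles, and it falls in the ventricle around birth.

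Hearts were taken at embryonic day 19.5 from wild-type Sprague-Dawley rat fetuses. The 5 libraries of the control group (CON) came from pregnancies of dams injected with citric acid buffer, and the 5 of the hyperglycemia group (HG) from dams injected intraperitoneally with streptozotocin, which destroys the beta cells of the pancreas, in the same buffer. Dams of both groups were 3 months old, were injected on 3 successive days and were mated with normoglycemic males, and glucose above 16 mM on day 7 after injection counted as diabetes. The sources differ on whether the injections came before or after mating, and streptozotocin was given to the HG dams alone, so that the compound and the glucose cannot be told apart. The comparison HG against CON asked what a hyperglycemic pregnancy did to the fetal heart, a study in which ANP and BNP transcripts also served as markers of cardiac injury in other assays.

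Reads on genes, recovered from the steps between FPKM values, numbered 17639895 to 18240006 in CON and 16672876 to 19109844 in HG. The labels do not say whether the libraries of a group came from separate litters, so the p-values measure the spread between these libraries. The labels name heart tissue whereas a legend of the study names isolated cardiomyocytes, and genes of endothelium, fibroblasts and red cells were present in every library. CON library 3 stood apart in 2 liver genes, with 34.9 FPKM of Alb and 24.3 FPKM of Afp against at most 2.93 and 1.35 in any other library. It also held the most of the atrial genes Sln (12.7 FPKM against at most 3.90) and Myl7 (1066 FPKM against at most 934). Another atrial gene, Myl4, was highest in CON library 2 (1118 FPKM). Whether the atrial share differed between libraries was not tested. In such bulk samples fewer cells of a type and less RNA per cell cannot be told apart. Over all tested genes the median log2 fold change was 0.09, and with factors from the median of ratios, which rescale the libraries to a typical gene, it was 0.01. With those factors the split of genes called was 2271 higher and 2551 lower in HG, against 4127 higher and 1709 lower in FPKM as deposited.

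The sequences before the starts of Nppa and Nppb are shown because these genes lie next to each other and both were higher in HG. They are the 250 bases before each gene start, 5′ to 3′ on the plus strand, from RefSeq for the build GRCr8, at chr5:163711934-163712183 for Nppa and chr5:163699758-163700007 for Nppb. Capitals mark matches to letters bound by heart transcription factors, searched on both strands: GATAA (GATA factors), AAGTG (NKX2-5), GTGTGA (T-box factors), CATTCC (TEAD factors) and the CArG box (SRF), and TATAAA (the TATA box) on the given strand alone.
Nppa: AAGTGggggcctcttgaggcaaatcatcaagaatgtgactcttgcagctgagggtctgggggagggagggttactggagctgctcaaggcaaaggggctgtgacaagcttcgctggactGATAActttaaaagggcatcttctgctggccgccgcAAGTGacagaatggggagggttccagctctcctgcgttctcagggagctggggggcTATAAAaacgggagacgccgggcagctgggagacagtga
Nppb: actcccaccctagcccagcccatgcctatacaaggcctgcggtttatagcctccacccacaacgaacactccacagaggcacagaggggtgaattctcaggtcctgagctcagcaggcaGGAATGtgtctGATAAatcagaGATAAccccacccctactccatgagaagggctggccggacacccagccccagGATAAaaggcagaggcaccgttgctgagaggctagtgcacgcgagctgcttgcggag
The Nppa run held GATAA once, 131 bases before the start, AAGTG at 250 and 95 bases before it, and TATAAA at 39 bases before it. The Nppb run held GATAA at 120, 109 and 57 bases before the start, and CATTCC on the other strand, as GGAATG, at 131 bases before it. Neither run held GTGTGA or a CArG box. Of 33469 promoters searched over the same length, 23.5% held GATAA, 40.6% AAGTG, 11.6% GTGTGA, 12.1% CATTCC, 8.06% TATAAA, and 501 of them held a CArG box, so several of these letters are common. A match describes the letters and does not show that a factor binds there. RefSeq entries were at hand for 6 of the 8 genes, Npr2 and Furin being the others.

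Called genes are those with a Benjamini-Hochberg adjusted p under 0.05 in limma's moderated test of log2(FPKM + 0.1) over all 14542 tested genes. Of the 8 genes, 4 were called higher in HG (Nppa, Nppb, Npr3 and Furin), where 28.4% of all tested genes were. A further gene, Corin, was called lower, where 11.8% of all tested genes were. The remaining 3 genes, Nppc, Npr1 and Npr2, were not called. None of the 8 also passed a 2-fold change, which 1.94% of all tested genes did. That count was 0 in limma and 0 in voom on the recovered reads. The genes with an unadjusted limma p under 0.05 were the same 5 that were called. In 3 genes (Nppa, Npr3 and Furin) the groups did not overlap, where 27.4% of all tested genes had no overlap in either direction. The median log2 change of the 8 genes was 0.27, against 0.09 over all tested genes, and with so many genes called these counts are a description of the 8 genes. Counts for the gene lists below stand beside the same shares of all tested genes.

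**Figure D1:**
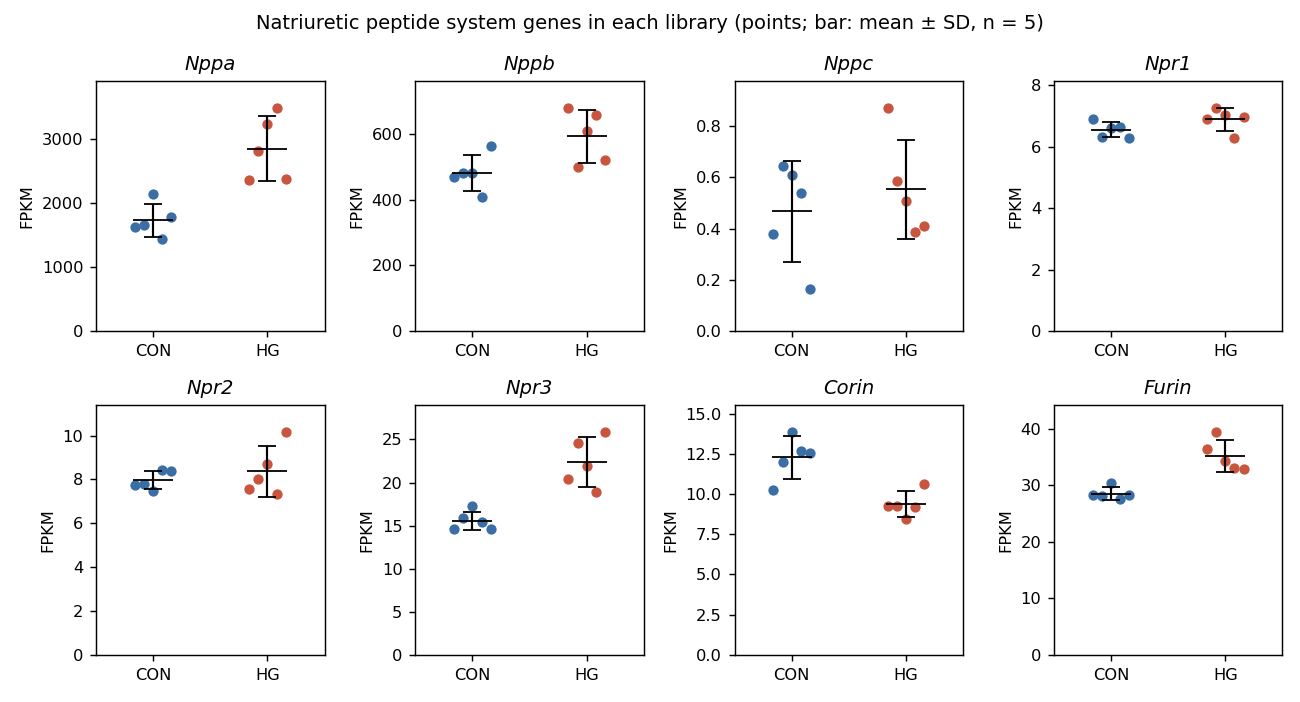
FPKM of each of the 8 genes (vertical axes from 0) in the 5 CON and 5 HG libraries, 1 point per library, with a bar for the mean ± SD. Nppa, Npr3 and Furin have every HG point above every CON point, Corin has 1 HG point above the lowest CON point, and the points of Nppc, Npr1 and Npr2 mix.

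**Figure D2:**
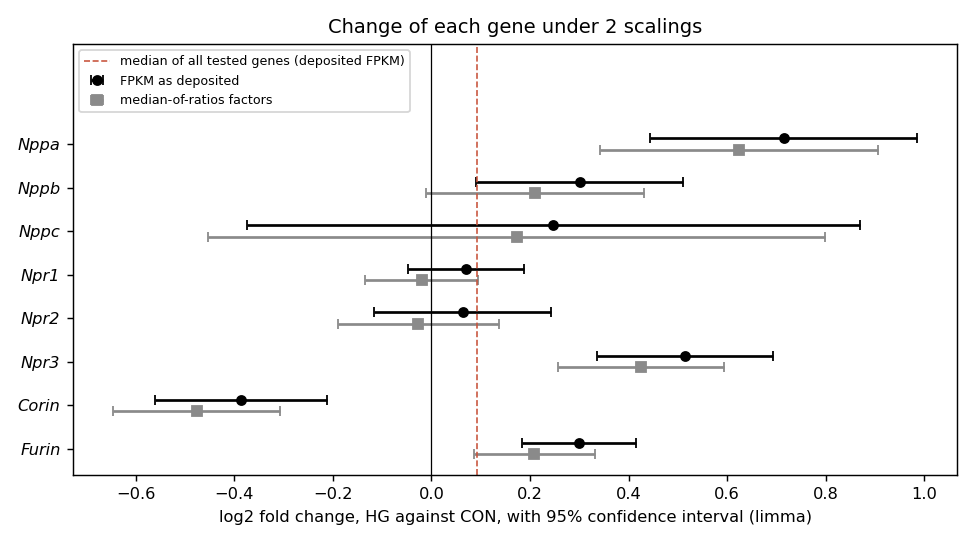
log2 change of each gene, HG against CON, with its 95% confidence interval from limma (n = 5 per group), for FPKM as deposited (black circles) and with median-of-ratios factors (gray squares); the dashed line is the median of all tested genes, 0.09. Nppa lies farthest to the right at 0.71, Corin is to the left of 0 at -0.39, and the interval of Nppb reaches 0 with the factors.

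Among the hormones, Nppa (NCBI gene 24602) was the most abundant of the 8 genes and changed most. It measured 1626, 1667, 2142, 1437 and 1791 FPKM in CON libraries 1 to 5 and 2357, 2814, 3240, 3492 and 2373 FPKM in HG libraries 1 to 5. Every HG library lay above every CON library, the nearest being CON library 3 and HG library 1. The mean was 1733 ± 262 FPKM in CON against 2855 ± 509 FPKM in HG (SD, n = 5 each), a log2 change of 0.71 (SE 0.12, 95% confidence interval 0.44 to 0.99, limma adjusted p = 0.000797), or 1.64-fold. Of all tested genes, 94.5% had a smaller change in size. Nppa ranked between 12 and 21 among all genes by FPKM in CON libraries and between 4 and 9 in HG libraries, and took 0.117% to 0.174% of the reads on genes in CON and 0.192% to 0.284% in HG. Without CON library 3, the one with liver genes, the log2 fold change was 0.79 (adjusted p = 0.000507).

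Nppb (NCBI gene 25105), the BNP gene, rose by less. It measured 469.6, 480.4, 480.04, 408 and 562 FPKM in CON libraries 1 to 5 and 679, 498, 608, 658 and 521 FPKM in HG libraries 1 to 5. The groups overlapped, since CON library 5 was above HG libraries 2 and 5. The mean was 480.1 ± 54.8 FPKM in CON against 593 ± 80.7 FPKM in HG (SD, n = 5 each), a log2 change of 0.30 (SE 0.10, 95% confidence interval 0.09 to 0.51, limma adjusted p = 0.0266), or 1.23-fold. This call depended on the scaling and on which libraries were in the fit. With quantile normalization it was kept, at a log2 change of 0.40 (limma adjusted p = 0.00629). It was lost with median-of-ratios factors (log2 0.21, adjusted p = 0.135) and with the replicate number as a block (0.0600). It was also lost without CON library 1 (log2 0.29, adjusted p = 0.0516), CON library 4 (0.24, 0.0642), HG library 1 (0.25, 0.0656), HG library 3 (0.29, 0.0565) or HG library 4 (0.26, 0.0622). Each of those fits had 1 library fewer, and without CON library 1 or HG library 3 the log2 change hardly moved.

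Nppc (NCBI gene 114593) was near the limit of detection, with 3 to 12 reads in CON libraries and 7 to 17 in HG libraries. It measured 0.379, 0.645, 0.611, 0.539 and 0.166 FPKM in CON libraries 1 to 5 and 0.872, 0.587, 0.508, 0.389 and 0.411 FPKM in HG libraries 1 to 5, and the groups overlapped. The log2 change of 0.25 had a 95% confidence interval of -0.38 to 0.87 (limma adjusted p = 0.525), so a change of that size in either direction was not detectable at this depth.

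Of the receptors, the cyclase receptor genes Npr1 and Npr2 were not called, whereas the clearance receptor gene Npr3 was higher. Npr1 (NCBI gene 24603) measured 6.88, 6.32, 6.62, 6.63 and 6.29 FPKM in CON libraries 1 to 5 and 6.88, 7.26, 7.03, 6.27 and 6.96 FPKM in HG libraries 1 to 5. The HG library 4 was the lowest of all 10, and the log2 fold change was 0.07 (95% confidence interval -0.05 to 0.19, limma adjusted p = 0.334). Npr2 (NCBI gene 116564) measured 7.73, 7.80, 7.48, 8.42 and 8.36 FPKM in CON libraries 1 to 5 and 7.58, 8.04, 8.71, 7.32 and 10.2 FPKM in HG libraries 1 to 5. HG library 5 alone was above 9 FPKM, and the log2 fold change was 0.06 (95% confidence interval -0.12 to 0.24, limma adjusted p = 0.578). With median-of-ratios factors or quantile normalization the sign of both turned, to -0.02 for Npr1 under both and to -0.03 and -0.02 for Npr2.

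Npr3 (NCBI gene 25339) measured 14.6, 15.9, 17.2, 15.4 and 14.6 FPKM in CON libraries 1 to 5 and 20.5, 24.6, 21.9, 18.9 and 25.9 FPKM in HG libraries 1 to 5. The lowest HG library lay above the highest CON library. The mean was 15.5 ± 1.09 FPKM in CON against 22.4 ± 2.89 FPKM in HG (SD, n = 5 each), a log2 change of 0.52 (SE 0.08, 95% confidence interval 0.34 to 0.69, limma adjusted p = 0.000442), or 1.43-fold. Of all tested genes, 88.4% had a smaller change in size.

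The proteases moved in opposite directions. Corin (NCBI gene 289596), the heart's own convertase of the ANP precursor, measured 10.3, 11.98, 13.9, 12.7 and 12.6 FPKM in CON libraries 1 to 5 and 9.28, 9.26, 8.43, 9.17 and 10.6 FPKM in HG libraries 1 to 5. The groups overlapped by 1 pair, HG library 5 being above CON library 1. The mean was 12.3 ± 1.31 FPKM in CON against 9.36 ± 0.803 FPKM in HG (SD, n = 5 each), a log2 change of -0.39 (SE 0.08, 95% confidence interval -0.56 to -0.21, limma adjusted p = 0.00245), or 0.765-fold.

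Furin (NCBI gene 54281), a convertase of many precursors including that of BNP, measured 28.2, 28.2, 30.5, 27.6 and 28.2 FPKM in CON libraries 1 to 5 and 36.4, 39.5, 34.2, 33.03 and 32.8 FPKM in HG libraries 1 to 5. All HG libraries lay above all CON libraries. The mean was 28.6 ± 1.10 FPKM in CON against 35.2 ± 2.80 FPKM in HG (SD, n = 5 each), a log2 change of 0.30 (SE 0.05, 95% confidence interval 0.18 to 0.41, limma adjusted p = 0.000891), or 1.23-fold.

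By level, which FPKM gives per gene length, the order was the same in both groups: Nppa, Nppb, Furin, Npr3, Corin, Npr2, Npr1 and Nppc. Neighbours in that order had separate ranges over the libraries, except Corin and Npr2 in HG, which overlapped and stood in that order in 4 of 5 libraries. Mean FPKM of Nppa was 3.61 times that of Nppb in CON and 4.82 times in HG. Mean FPKM of Npr3 was 1.27 times that of Corin in CON and 2.39 times in HG.

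Ratios within a library do not depend on the size of the library, and 5 of them were compared as log2 ratios by exact permutation (two-sided), where the smallest p that 5 against 5 libraries can give is 0.00794. The log2 ratio of Nppa to Nppb was 1.85 ± 0.18 in CON against 2.26 ± 0.28 in HG (SD, n = 5 each), a difference of 0.41 (exact p = 0.0238, adjusted over the 5 ratios 0.0298). The groups overlapped, since HG library 1 at 1.80 lay among the CON libraries. The adjusted p was 0.0595 in 7 of the 10 fits that left out 1 library (CON library 1, 2 or 5, or HG library 2, 3, 4 or 5). With 4 against 5 libraries the exact p cannot go below 0.0159, and the difference stayed between 0.36 and 0.53. The call was kept without CON library 3 or 4 (adjusted p = 0.0397 each) and without HG library 1 (0.0265), under the same limit. Whether single libraries carried the difference was not tested. The log2 ratio of Npr3 to Npr1 was 1.23 ± 0.11 in CON and 1.68 ± 0.14 in HG, a difference of 0.45 with no overlap (exact p = 0.00794, adjusted 0.0198). The log2 ratio of Npr2 to Npr1 was 0.28 ± 0.11 in CON and 0.27 ± 0.17 in HG (exact p = 0.929, adjusted 0.929). Relative to Npr1, transcripts of the clearance receptor were thus higher in all 5 HG libraries than in any CON library.

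**Figure D3:**
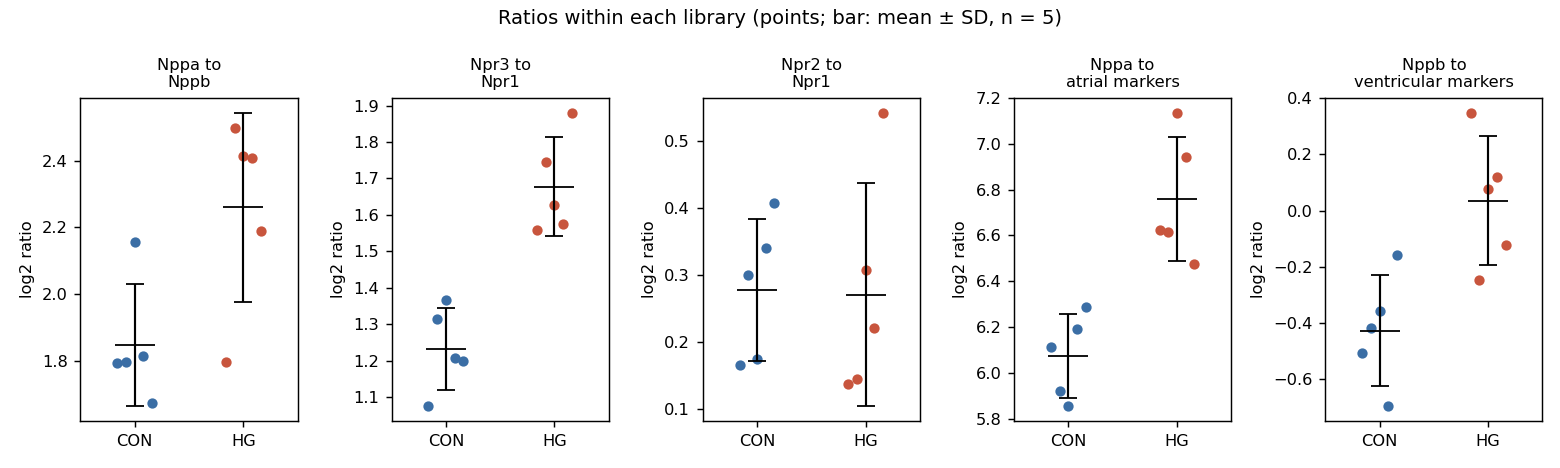
log2 ratios (vertical axes, which do not start at 0) within each of the 5 CON and 5 HG libraries, 1 point per library, with a bar for the mean ± SD; marker ratios use the mean log2 value of the list. Every HG point is above every CON point for Npr3 to Npr1 and for Nppa to atrial markers, and the Npr2 to Npr1 points mix.

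Nppa and Nppb were set beside genes of heart muscle, since they are made there. Of 9 atrial cardiomyocyte genes, 2 were called higher, 0 lower and 7 not called, with a median log2 change of 0.01. Bmp10, a growth factor of trabeculae and atria, measured 15.8 ± 4.01 FPKM in CON against 30.5 ± 3.06 FPKM in HG (SD, n = 5 each), a log2 change of 0.98 (limma adjusted p = 0.000298). It ranged from 10.8 to 21.6 FPKM in CON and from 25.6 to 33.4 FPKM in HG. Nr2f2, a transcription factor of atrial identity, had a log2 change of 0.30 (adjusted p = 0.00496), and Pam, a peptide-amidating enzyme of atrial granules, 0.13 (adjusted p = 0.103). Pam was called higher with quantile normalization (log2 0.23, adjusted p = 0.00712), with the Y chromosome covariate and without CON library 3. The most abundant atrial genes, the myosin light chains Myl4 and Myl7, had log2 fold changes of 0.08 and -0.06 (adjusted p = 0.582 and 0.801). Summed over the list, FPKM ranged from 1815 to 2513 in CON and from 1917 to 2474 in HG.

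Of 5 ventricular genes, 3 were called lower, 1 higher (Hey2) and 1 not called. The call of Hey2 (log2 0.24, limma adjusted p = 0.0385) was lost in 12 of 22 alternatives, median-of-ratios factors and quantile normalization among them. The light chain gene Myl2 fell by 0.41 on the log2 scale (adjusted p = 0.000772), Myl3 by 0.27 (0.000475) and the heavy chain gene Myh7 by 0.31 (0.000751). With quantile normalization 1 of the 5 was called lower and 0 higher, and Myl3 lost its call (log2 -0.04, limma adjusted p = 0.597). That method gives genes of the same rank in every library the same value, as it did for Myl2, so it cannot show a change in Myl2. Of 8 genes shared by cardiomyocytes, 7 were called lower and 0 higher, and with quantile normalization 6 were lower and 0 higher. Myh6, the other cardiac heavy chain gene, went from 432 ± 40.6 to 211 ± 20.7 FPKM (log2 -1.03, adjusted p = 1.97e-06), the calcium pump inhibitor gene Pln had a log2 change of -0.48 (8.53e-06), and the calcium release channel gene Ryr2 -0.62 (7.94e-05). Nppa was thus higher while most genes of the contractile apparatus on these lists fell. Of 3 tested trabecular and conduction genes (Gja5, Irx3 and Hcn4), none was called, nor at an unadjusted limma p under 0.05 or by voom, and their log2 fold changes were 0.15, 0.24 and -0.06.

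The log2 ratio of Nppa to the mean of the 9 atrial genes was 6.07 ± 0.18 in CON against 6.76 ± 0.27 in HG (SD, n = 5 each), a difference of 0.69 with no overlap (exact permutation p = 0.00794, adjusted 0.0198). Each gene counts alike in that mean, whether Bmp10 (log2 change 0.98) or low genes such as Sln (-0.68, 0.929 to 12.7 FPKM in CON) and Kcna5 (-0.33, 0.860 FPKM in CON). Without CON library 3, where Sln was highest, the difference was 0.63. The log2 ratio of Nppb to the mean of the 5 ventricular genes was -0.43 ± 0.20 in CON and 0.04 ± 0.23 in HG, a difference of 0.46 (exact permutation p = 0.0159, adjusted 0.0265), and the groups overlapped. The adjusted p of the latter was 0.0529 in 5 of the 10 fits that left out 1 library (CON library 1 or 2, or HG library 3, 4 or 5). Its difference was 0.38 to 0.53 over the 10 fits, where the exact p cannot go below 0.0159.

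**Figure D4:**
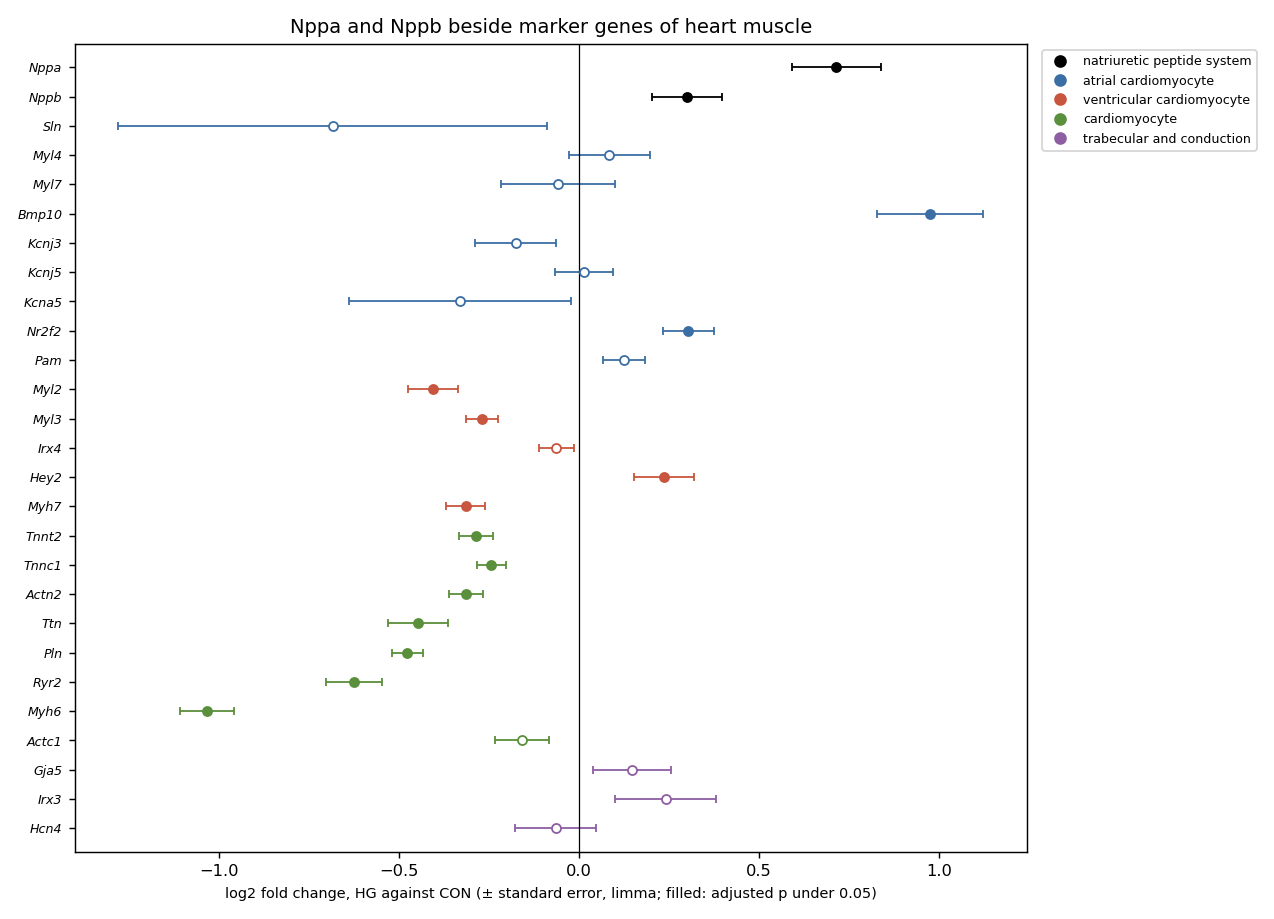
log2 change of Nppa, Nppb and each tested marker gene of heart muscle, HG against CON, with its standard error from limma (n = 5 per group); filled points have an adjusted p under 0.05. Nppa (0.71), Nppb (0.30) and Bmp10 (0.98) are to the right of 0, and Myh6 (-1.03) is farthest to the left.

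Genes of other cell types moved as well, and their part in the results was not tested. Of 8 endothelial and endocardial genes, 4 were called higher and 0 lower. Their summed FPKM ranged from 268 to 299 in CON and from 291 to 329 in HG. Plvap, of fenestrated vessels, had a log2 change of 0.78 (adjusted p = 0.00202), Emcn 0.29 (0.00278) and Tie1 0.20 (0.00970). The defining genes Pecam1 and Cdh5 had log2 fold changes of -0.06 and -0.03 (0.263 and 0.700). With median-of-ratios factors the count was 3 higher and 1 lower, since Tie1 lost its call (log2 0.11, adjusted p = 0.151) and Pecam1 was called lower (log2 -0.15, adjusted p = 0.0171). Of 6 smooth muscle and pericyte genes, 3 were higher and 1 lower. Their sums ranged from 762 to 885 FPKM in CON and from 976 to 1228 FPKM in HG. The contractile genes Cnn1 and Acta2 had log2 changes of 0.91 (2.37e-05) and 0.32 (0.00341), and the pericyte gene Rgs5 of -0.31 (0.00456). Of 8 fibroblast genes, 2 were higher and 4 lower, with sums of 1724 to 2010 FPKM in CON and 1556 to 1785 FPKM in HG. Of 6 epicardial genes, 1 was higher and 1 lower, and of 6 macrophage genes, 3 were higher and 0 lower. The fibroblast count was 2 higher and 6 lower with median-of-ratios factors, and 2 higher and 3 lower with quantile normalization. The macrophage count was 2 higher and 0 lower under both.

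Of 13 tested red cell genes, 8 were lower and 2 higher. The higher ones were Hbz (log2 4.07, limma adjusted p = 1.46e-06) and Hbe1 (2.24, 2.06e-05), and the lower ones included Hba-a3 (-1.54, 0.000276). Summed over the list, FPKM ranged from 10577 to 19993 in CON and from 8347 to 11692 in HG. Because FPKM is relative, abundant transcripts bear on every other value, but hemoglobin genes took 0.481% to 1.14% of the reads on genes. With them left out none of the 8 calls changed, and the median log2 change over all tested genes was 0.0891 against 0.0928. Of 4 tested genes of neighbouring tissues, 2 were lower (Alb and Afp, where CON library 3 stood apart) and 2 higher. The call of Alb was lost in 15 of 22 alternatives, and without CON library 3 this left 1 lower. The labels give no sex, and with Y chromosome genes (1 of 4 called) as a covariate the calls of the 8 genes stayed as they were.

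The other genes of the pathway were taken from lists by role. Of 6 other precursor proteases, 3 were tested, and 1 was called lower and 0 higher. Pcsk7 measured 10.6 FPKM in CON and 9.24 FPKM in HG (log2 -0.20, limma adjusted p = 0.0402), a call that was lost without any 1 of 7 of the libraries, and Pcsk6 had a log2 change of -0.05 (0.528). The genes of peptide breakdown moved in both directions. Mme, which encodes neprilysin, the enzyme that degrades the peptides outside cells, measured 2.25 ± 0.378 FPKM in CON against 3.02 ± 0.339 FPKM in HG (log2 0.42, adjusted p = 0.0147). Ide, the insulin-degrading enzyme, which also cuts ANP, measured 23.8 ± 0.991 FPKM in CON against 20.8 ± 1.08 FPKM in HG (log2 -0.20, adjusted p = 0.00489). In both genes the groups did not overlap. Ostn, whose product binds the clearance receptor, was below the filter.

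Of 3 tested subunits of the soluble guanylyl cyclases, which make cGMP in response to nitric oxide, 1 was called higher. Gucy1b1 measured 13.7 ± 0.413 FPKM in CON against 16.2 ± 1.28 FPKM in HG (log2 0.24, adjusted p = 0.00420), a call lost with median-of-ratios factors (log2 0.15, adjusted p = 0.0520). Gucy1a1 had a log2 change of 0.17 (adjusted p = 0.0936).

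Of 15 genes for cGMP targets and phosphodiesterases, 5 were called higher, 2 lower and 8 not called, with a median log2 change of 0.11 against 0.09 over all tested genes. Among all tested genes, 28.4% were called higher and 11.8% lower. Pde2a, a phosphodiesterase that cGMP switches on to break down cyclic AMP, measured 10.01, 9.58, 10.05, 10.9 and 10.9 FPKM in CON libraries 1 to 5 and 6.28, 6.82, 7.15, 7.12 and 6.74 FPKM in HG libraries 1 to 5. It was thus lower in all 5 HG libraries than in any CON library (log2 -0.59, SE 0.06, adjusted p = 1.28e-05). Rgs2, a brake on G protein signaling that the cGMP-dependent kinase acts on, measured 22.6, 31.1, 34.7, 16.0 and 29.6 FPKM in CON libraries 1 to 5 and 42.7, 61.4, 41.6, 40.3 and 44.1 FPKM in HG libraries 1 to 5. It was higher in all 5 HG libraries (log2 0.81, SE 0.19, adjusted p = 0.00450). Vasp, an actin regulator and a substrate of that kinase, measured 71.2 ± 1.65 FPKM in CON against 85.6 ± 4.62 FPKM in HG (log2 0.26, adjusted p = 0.000281). These 3 kept their calls and directions in all 22 alternatives.

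**Figure D5:**
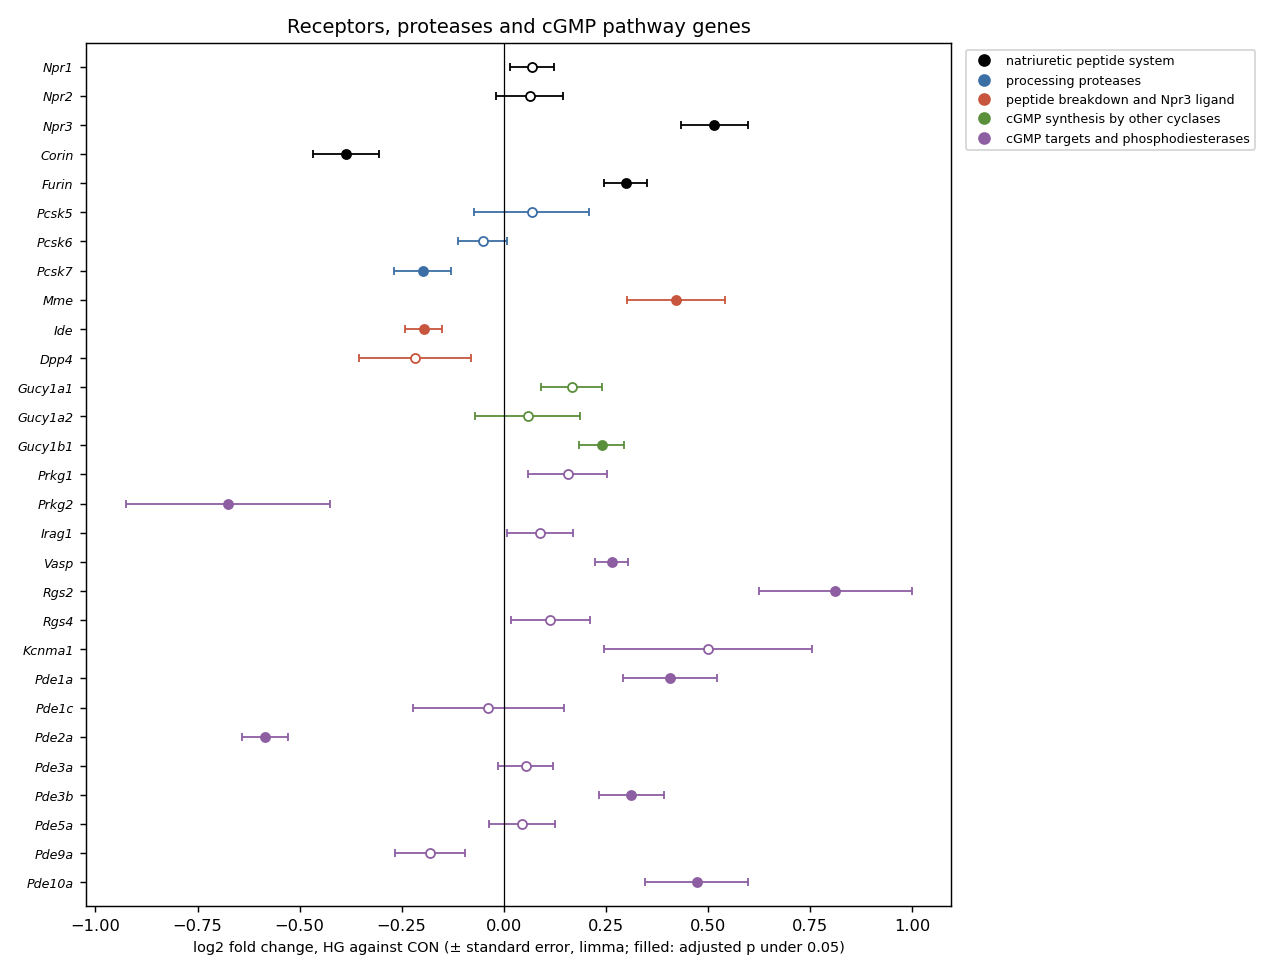
log2 change of the receptor and protease genes among the 8 (black) and of each tested gene of 4 pathway lists, HG against CON, with its standard error from limma (n = 5 per group); filled points have an adjusted p under 0.05. Npr3 (0.52) and Rgs2 (0.81) are to the right of 0 and Corin (-0.39) and Pde2a (-0.59) to the left.

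Of 18 transcription factors known to act on natriuretic peptide genes, 6 were called higher, 3 lower and 9 not called. Over all tested genes the shares were 28.4% higher and 11.8% lower. With median-of-ratios factors the count among the 18 was 3 higher and 5 lower. The GATA factor Gata6 measured 70.7 ± 2.11 FPKM in CON against 57.0 ± 1.08 FPKM in HG (log2 -0.31, adjusted p = 2.17e-05). Rest, a repressor of Nppa and Nppb, measured 10.7 ± 0.499 FPKM in CON against 13.8 ± 0.416 FPKM in HG (log2 0.37, adjusted p = 7.42e-05). Hand1, a factor of the developing ventricle, measured 6.71 ± 0.933 FPKM in CON against 11.1 ± 0.98 FPKM in HG (log2 0.72, adjusted p = 8.93e-05). Gata4 and Nkx2-5, whose letters were searched above and which are named after their values were seen, had log2 fold changes of 0.26 (adjusted p = 0.000214) and -0.12 (0.230).

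Of 12 genes that respond to load and stress, 1 was called higher, 4 lower and 7 not called, with a median log2 change of -0.09. Gdf15, a stress-induced cytokine, measured 0.867 ± 0.213 FPKM in CON against 1.72 ± 0.444 FPKM in HG (log2 0.89, adjusted p = 0.00305). Acta1, the skeletal actin of the fetal heart, measured 2362 ± 123 FPKM in CON against 1857 ± 302 FPKM in HG (log2 -0.36, adjusted p = 0.0110), a call lost with quantile normalization (adjusted p = 0.120). Myh7, which is on this list too, is given above. The rise of Nppa was not shared by most of the genes on this list.

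Tested protein-coding genes near the Nppb and Nppa pair, in the gene order of GRCr8, did not share 1 direction. Beside Nppa, the chloride transporter gene Clcn6 measured 7.54 ± 0.299 FPKM in CON against 9.26 ± 0.269 FPKM in HG (log2 0.29, adjusted p = 0.000435), and Agtrap, the angiotensin receptor associated protein gene, had a log2 change of 0.52 (0.000273). Beside Nppb, RGD1305350 had a log2 change of 0.08 (0.357), Plod1 of -0.00196 (0.978), and the mitochondrial fusion gene Mfn2 of -0.28 (6.31e-05).

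Within groups, after each group's mean was taken off log2(FPKM + 0.1), Nppa and Nppb correlated at Pearson's r = 0.37 over the 10 libraries (0.55 over the CON libraries and 0.25 over the HG libraries). Over 11709 genes averaging 1 FPKM or more, the highest correlations with Nppa were those of Wfdc2 (r = 0.94), Dctn6 (0.89) and Rd3l (0.89). Those with Nppb were of Dhodh (0.92), Rsph3 (0.90) and Utp15 (0.88). The lists did not share a gene, the points share libraries and depth, and the values describe these 10 libraries. Rd3l went the other way from Nppa between the groups (log2 -0.53, adjusted p = 0.0150), and Wfdc2 and Dctn6 were not called. Among the other pairs of the 7 genes above 1 FPKM, Nppb and Npr3 had the strongest correlation, at r = -0.70 (-0.25 over the CON libraries and -0.92 over the HG libraries).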

How the data were processed

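Messenger RNA of fetal rat hearts was measured in 10 stranded libraries, 5 CON and 5 HG. The authors deposited FPKM per gene, and the submitters' processing notes name fastp, HISAT2, HTSeq, R 3.2.0 and the build mRatBN7.2 without giving their roles. RNA of the samples was pooled for a cDNA library according to the study's Methods, whereas the columns differ between all libraries (chi-square per degree of freedom of at least 5.94 within a group). All per-library columns were used (0 unused), and no column of comparisons was used.

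The test took genes averaging 0.1 FPKM or more on the scale log2(FPKM + 0.1), which understates changes of low genes, and used limma 3.58.1 in R 4.3.3 (trend on expression, no covariate) and Benjamini-Hochberg adjustment over all tested genes. Called genes had an adjusted p under 0.05, and the second threshold was 2-fold. Values were read with Python 3.11.15, pandas 2.3.3, numpy 2.4.6, scipy 1.17.1 and drawn with matplotlib 3.10.9. Ratios were tested by exact permutation of the libraries (two-sided). Reads were recovered from the FPKM steps, with 100% of genes whole within 0.02 reads. The scripts were tested on simulated data.

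The 8 genes and the lists were chosen with earlier results of these data known. The rule named all 8 genes, up to 3 tested genes per list with the smallest adjusted p and 1 FPKM or more on average, the 3 nearest tested neighbours on each side (1 gene is not reported here), and the 3 most alike genes for Nppa and Nppb. Genes outside it (Sln, Kcna5, Hey2, Myl4, Myl7, Pecam1, Cdh5, Ostn, Gata4, Nkx2-5 and pairs other than Nppa with Nppb) were named after their values were seen.

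Results were recomputed with a pseudocount of 1 or 0.01, without the filter or with one at 1 FPKM, with libraries rescaled by median-of-ratios factors or by quantiles, and without hemoglobin genes. The model was also run without its trend, with weights per library, with a replicate block, with Y chromosome expression as covariate, by voom on recovered reads, and after leaving out each library. Sequences are from RefSeq for GRCr8, which differs from the build of the files, so that the reference served for gene order and printed sequence alone.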

Additional observations from a re-analysis of the deposited data

Results flagged for a closer look

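In the CON group, Furin was highest in library 3, at 30.5 FPKM, which stood 0.786 of the group's range away from the nearest other library (28.2 FPKM), where the critical value for 5 samples is 0.71. Of 26 groups of 5 libraries examined for such gaps, this was 1, and chance flags about 1 in 20. CON library 3 is also the library with Alb and Afp. Its part in the value was not tested. Without it, the call and direction of Furin stayed.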

How the results depend on the processing

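The log2 fold changes of Nppa (0.62 to 0.89), Npr3 (0.42 to 0.57), Corin (-0.48 to -0.34) and Furin (0.21 to 0.32) kept their direction and call in all 22 alternatives, and 5 of the 8 genes were called, or 4 in the 8 alternatives where Nppb lost its call. In 4 of 12 alternatives 4 genes had no overlap, where the main count was 3. Of 250 fold changes and ratios under alternatives, 215 kept their direction and their side of the threshold. Nppb stayed above 0 but lost its call with median-of-ratios factors (log2 0.21), without the trend (0.30) and with the replicate block (0.30, adjusted p = 0.0600), and libraries left out in turn gave 0.24 to 0.36. Quantile normalization gave its highest log2 change, 0.40, and kept the call. Npr1 turned to -0.0196 with median-of-ratios factors and -0.0210 with quantile normalization, and Npr2 to -0.0265 and -0.0231. Leaving out libraries in turn gave -0.00358 to 0.37 for Nppc, lowest without CON library 5, and -0.00937 to 0.11 for Npr2, lowest without HG library 5.

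In a paired sign permutation by replicate number, the differences in log2 ratio of Nppa to Nppb (0.41), Npr3 to Npr1 (0.45), Nppa to atrial markers (0.69) and Nppb to ventricular markers (0.46) had an adjusted p of 0.0781, since 5 pairs cannot go below p = 0.0625. Libraries left out in turn gave 0.36 to 0.53 for Nppa to Nppb, 0.38 to 0.53 for Nppb to ventricular markers and -0.0746 to 0.0265 for Npr2 to Npr1. The first lost its call in 7 of 10 of them and the second in 5 of 10. With 4 against 5 libraries the smallest exact p is 0.0159, a coarser test than with all libraries. Npr3 to Npr1 and Nppa to atrial markers kept their calls in all 10 of these fits. Deviations of same-numbered libraries correlated at -0.126 to 0.108, so no pairing by number was visible in expression, and the labels name none. The block called 5096 genes. The filter at 1 FPKM gave no value for Nppc, where few reads limit what can be seen. The causes were not tested.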
